A study of Mus musculus with 6 samples.

Results

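The Krüppel-like factor (KLF) genes other than Klf1 were followed in c-Kit+ acute promyelocytic leukemia (APL) progenitors and in normal myeloid progenitors (MPs) of the mouse. The members were taken by gene symbol and were Klf2, Klf3, Klf4, Klf5, Klf6, Klf7, Klf9, Klf10, Klf11 and Klf13, which are 10 of the 16440 genes in the deposited table. Klf1, Klf8, Klf12, Klf15 and Klf16, the other KLF genes of the table, are given for comparison, and Klf14 and Klf17 were not analysed here.

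RNA sequencing covered 6 libraries, 3 for each group. The MPs were Lin-Sca-1-c-Kit+ cells sorted from the BM of FVB N/J mice, a gate that takes in the common myeloid, granulocyte-macrophage and megakaryocyte-erythroid progenitors together. The APL cells came from hMRP8-PML/RARα transgenic mice of the same strain, in which the MRP8 promoter drives the human fusion gene in myeloid cells. They had been marked with GFP through a MigR1 retrovirus, expanded by transplantation into syngeneic mice and sorted as GFP-labeled c-Kit+ cells. For cells sorted by GFP, the methods of the study describe recipients that had received sub-lethal irradiation. The labels give no drug treatment and no age for either group. The design text calls the 3 libraries of a group biological replicates but does not say that each came from a separate mouse, so the p-values measure the spread between these libraries. Kit itself, the receptor used for sorting, was present in both groups, at 10442, 10970 and 10592 scaled fragments in the 3 MP libraries against 5780, 5975 and 6033 in the 3 APL libraries, and was called as downregulated (1.8-fold, adjusted p = 5.9e-06, limma with Benjamini-Hochberg adjustment). Ly6a, which encodes Sca-1, was a low gene, with 19.1, 30.6 and 32.0 scaled fragments in MPs and 39.0, 42.5 and 48.8 in APL progenitors, and was called as upregulated (adjusted p = 0.043, limma with Benjamini-Hochberg adjustment). The gates as described exclude Lin+ and Sca-1+ cells for MPs only. The part of this sorting in the Ly6a difference was not tested.

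KLF proteins are transcription factors that bind GC-rich and CACCC-type DNA through a set of zinc fingers at the C-terminal end, and their N-terminal parts differ and recruit either activating or repressing partners. They are commonly divided into a group of mostly activators (among them Klf2, Klf4, Klf5, Klf6 and Klf7), a group that binds the corepressor CtBP (Klf3, Klf8 and Klf12) and a group that binds the corepressor SIN3A (Klf9, Klf10, Klf11, Klf13 and Klf16). In blood, Klf1 drives the erythroid program, Klf2 keeps T cells and monocytes quiescent, and Klf4 is needed for monocyte differentiation.

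Scaled fragments are the estimated fragments of a gene after a scaling by library, and FPKM is the same signal divided by the length of the transcript and by the mapped fragments of the library. Before scaling, the libraries held 23606024, 22976905 and 26932327 fragments in MPs and 20608715, 28382785 and 20911902 in APL progenitors. The lowest member value before scaling was 26 fragments, and all 10 members passed the filter on low values. Genes were tested with limma on log2(scaled fragments + 1) with Benjamini-Hochberg adjustment over the 14595 genes tested, and a gene was called at an adjusted p under 0.05 and a fold change over 1.5. A single gene can reach no less than p = 0.1 in an exact permutation test of 3 libraries against 3. Over all genes, MP library 3 stood farthest from the other MP libraries: the median squared difference between libraries, relative to counting noise, was 13.59 and 13.73 against libraries 1 and 2, and 3.3 between those. MP library 2 stood apart in several members, as described further on. Results that rest on either library are given with and without it.

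Of the 10 members, 5 were upregulated in APL progenitors (Klf5, Klf6, Klf7, Klf9 and Klf13), 1 was downregulated (Klf3) and 4 were not called (Klf2, Klf4, Klf10 and Klf11). Without MP library 2 the counts were 6 and 2, with Klf11 and Klf2 added, and without MP library 3 they were 4 and 1, with Klf13 lost. The rises were about 3-fold for Klf5, Klf6 and Klf7 and close to the fold threshold for Klf9 and Klf13. The comparison changed much of the transcriptome: 46.1% of all genes tested were called, 24.4% as downregulated and 21.7% as upregulated, so the 60% of members called has to be read against that share. The median log2 fold change was 0.55 over the 10 members and −0.10 over all genes tested. The values of the groups did not overlap for 7 members (5 above and 2 below the MPs), and they did not overlap for 70.9% of all genes (31.1% above and 39.8% below). In these bulk libraries, fewer cells of a type and less RNA per cell cannot be told apart.

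**Figure D1:**
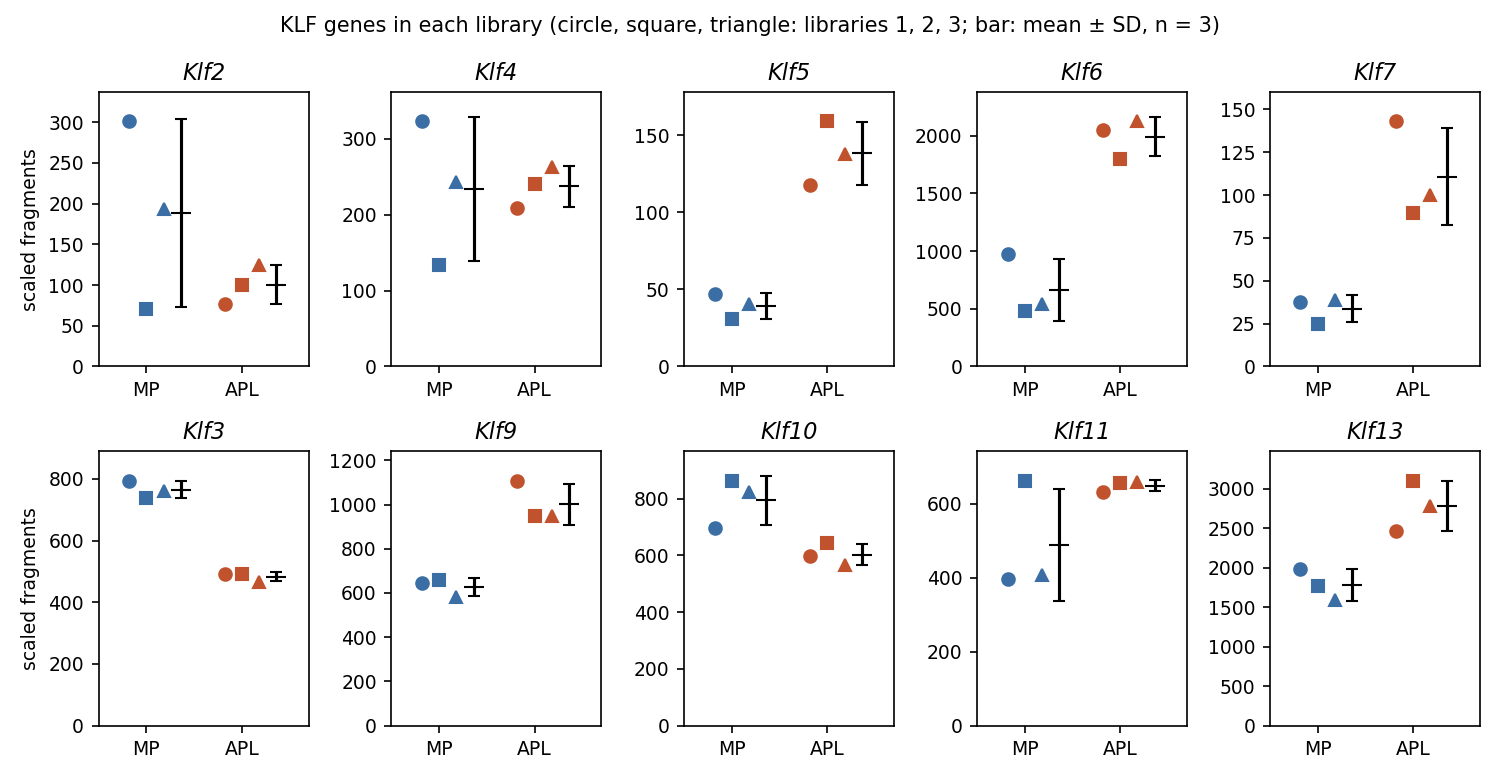
Scaled fragments of the 10 KLF members (vertical axes, each starting at 0) in the MP (blue) and APL (orange) libraries, with a bar for the mean and SD of 3 libraries. The APL points lie above all MP points for Klf5, Klf6, Klf7, Klf9 and Klf13 and below them for Klf3 and Klf10, and MP library 2 (square) is the lowest of the 6 libraries for Klf2 and Klf4.

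Some promoters of the members carried short motifs of the kind KLF factors bind, and windows that hold them are shown because Klf3, Klf7 and Klf13 were called in this comparison and Klf2 has the MEF2-type match beside it. RefSeq promoters (GRCm38.p6, 250 bases before to 50 after a start) were found for 8 of the 10 members, all but Klf5 and Klf10. The CACCC box CCCACCC, read on both strands, was present in 4 of these 8, against 20.9% of the promoters of tested genes. The GC box GGGCGG was present in 7 of 8, against 59.0%, and their median GC content was 70.7% against 60%. The TATA box, searched as the exact string TATAAA, was found in none of the 8 and in 7.78% of the promoters. Near forms were not searched, and the CACCC window of Klf2 printed below holds tataag. The palindromic MEF2-type motif was found in Klf2 alone of the 8 and in 3.22% of the promoters. Capitals mark the match, all sequences are 5′ to 3′ on the strand of the gene, and a match is a description of letters and not of binding. The Klf13 match overlaps a GC box. Klf3 holds 2 CACCC boxes and Klf7 holds 3, and for each the CACCC box nearest to the start is shown. The windows lie at chr5:64803454-64803494 on the plus strand for Klf3, chr1:64121477-64121517 on the minus strand for Klf7, chr7:63938916-63938956 on the minus strand for Klf13, and chr8:72319026-72319061 and chr8:72318927-72318970 on the plus strand for Klf2.
Klf3: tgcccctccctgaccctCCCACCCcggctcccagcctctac
Klf7: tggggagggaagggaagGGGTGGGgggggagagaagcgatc
Klf13: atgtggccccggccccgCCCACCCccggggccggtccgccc
Klf2, CACCC box: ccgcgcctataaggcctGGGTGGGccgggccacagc
Klf2, MEF2-type: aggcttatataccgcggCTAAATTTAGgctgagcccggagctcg

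In the group of activators, Klf5, Klf6 and Klf7 rose and Klf2 and Klf4 were not called. Klf6 encodes a widely expressed factor induced by growth and stress signals, and it lies on chromosome 13 from 5861489 to 5870393 (mm10). In order of library number, it had 975, 479 and 540 scaled fragments in MPs and 2050, 1800 and 2125 in APL progenitors. All 3 APL libraries lay above the highest MP library, and the means were 665 ± 270 and 1992 ± 171 (SD, n = 3). The log2 fold change, 1.65 (SE 0.23), had a 95% interval from 1.13 to 2.18, a 3.14-fold rise (adjusted p = 2.2e-04, limma with Benjamini-Hochberg adjustment).

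Klf5, on chromosome 14 from 99298691 to 99313409, encodes a factor best known from proliferating epithelium and also from granulocyte differentiation. It was a low gene in MPs, with 46.8, 30.5 and 40.6 scaled fragments, against 118, 159 and 138 in APL progenitors. Every APL value was above every MP value. The rise was 3.48-fold, with a log2 fold change of 1.8 and a 95% interval from 1.31 to 2.29 (adjusted p = 8.7e-05, limma with Benjamini-Hochberg adjustment). Klf7, on chromosome 1 from 64035671 to 64121389 and best known from neurons, had 37.5, 24.8 and 38.8 scaled fragments in MPs and 143, 89.3 and 100 in APL progenitors. The groups again did not overlap, and APL library 1 was the highest. Its rise was 3.21-fold, with a log2 fold change of 1.68 and a 95% interval from 1.10 to 2.27 (adjusted p = 3.9e-04, limma with Benjamini-Hochberg adjustment). The intervals of Klf5, Klf6 and Klf7 overlapped one another.

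Klf2 and Klf4, the pair best known from endothelium and monocytes, varied more within MPs than between the groups. Klf2, on chromosome 8 from 72319062 to 72321654, had 301, 70.5 and 194 scaled fragments in MPs and 76.6, 99.7 and 125 in APL progenitors. MP libraries 1 and 3 lay above all APL libraries and MP library 2 below all of them. The log2 fold change was −0.70 with a 95% interval from −1.75 to 0.35 (adjusted p = 0.21, limma with Benjamini-Hochberg adjustment). Without MP library 2 it was −1.29 (adjusted p = 0.0019) and Klf2 was called as downregulated, and without MP library 1 it was −0.25 (adjusted p = 0.61). Klf4, on chromosome 4 from 55527137 to 55532475, had 323, 134 and 243 scaled fragments in MPs and 209, 241 and 263 in APL progenitors. The APL values lay inside the MP range. Its log2 fold change was 0.11 with a 95% interval from −0.53 to 0.75 (adjusted p = 0.75, limma with Benjamini-Hochberg adjustment), and without MP library 2 its sign turned, to −0.24, while without MP library 1 it was 0.39. Of the 4 endothelial genes listed, Cdh5 had at most 4 fragments before scaling in any library and was not called, whereas Pecam1, Tek and Kdr were detected in MPs and downregulated in APL progenitors. Their summed level was 1359, 1273 and 1603 scaled fragments in MPs and 277, 316 and 385 in APL progenitors, most of it from Pecam1, which myeloid and megakaryocytic cells also express. The part of endothelial cells in the values of Klf2 and Klf4 was not tested.

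The genes of the monocyte list were divided, 5 of 8 downregulated and 3 upregulated. Their summed level was 12256, 10060 and 11205 scaled fragments in MPs and 31210, 34209 and 33581 in APL progenitors. This sum followed F13a1, which held the most fragments of the list. F13a1, Emr1 and Ccr2 rose, by 6.91-, 6.94- and 2.29-fold, whereas Irf8, Csf1r, Ly86, Cx3cr1 and Ms4a6c fell. The median log2 fold change of the list was −1.93. F13a1 had between 4029 and 4942 in MPs and between 28360 and 31131 in APL progenitors. The part of monocytic cells in the values of Klf2 and Klf4 was not tested.

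Klf3, the CtBP-binding gene among the members, was the member called as downregulated. It lies on chromosome 5 from 64803523 to 64830129 and is known as a repressor and as a gene that Klf1 activates in erythroid cells. It had 794, 739 and 762 scaled fragments in MPs and 490, 492 and 465 in APL progenitors. The 6 values formed 2 tight, separate sets, with means of 765 ± 28.0 and 482 ± 14.8 (SD, n = 3). The log2 fold change was −0.66 with a 95% interval from −0.85 to −0.48, a 1.58-fold fall (adjusted p = 8.7e-05, limma with Benjamini-Hochberg adjustment). Klf8 and Klf12 also belong to the CtBP-binding group. Klf8 had 149, 163 and 177 scaled fragments in MPs and 174, 173 and 158 in APL progenitors and was not called, with a log2 fold change of 0.05 (adjusted p = 0.75, limma with Benjamini-Hochberg adjustment). Klf12 had 22.5, 20.0 and 20.7 scaled fragments in MPs and was listed at 0 in all APL libraries. Before scaling these were 68 fragments against 0 over the group. With the scaling by library allowed for, Klf12 was at least 6.43-fold lower in APL progenitors against a floor of 3 fragments per library.

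Genes of the erythroid lineage, in which Klf1 and its target Klf3 are known to act, had far lower summed values in the APL libraries than in MPs. Klf1 itself had 2805, 2938 and 3726 scaled fragments in MPs and 13, 16.5 and 17.3 in APL progenitors, a 190-fold fall (adjusted p = 5.8e-09, limma with Benjamini-Hochberg adjustment). Of the 10 erythroid genes tested, 9 were downregulated and 1 was not called. The summed level of the 12 erythroid genes in the table was 64920, 65644 and 81593 scaled fragments in MPs and 318, 501 and 449 in APL progenitors. Car1, the carbonic anhydrase of early erythroid cells, held the most fragments of the list, and the globin gene Hba-a1 kept between 65.4 and 136 scaled fragments in APL progenitors. The part of erythroid cells in the fall of Klf3 was not tested.

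In the group that binds SIN3A, Klf9 and Klf13 rose by small amounts. Klf13 encodes a factor known from erythroid and lymphoid cells and lies on chromosome 7 from 63886351 to 63938915. It had 1988, 1763 and 1593 scaled fragments in MPs and 2464, 3102 and 2777 in APL progenitors. The highest MP value stayed below the lowest APL value. The rise was 1.56-fold, with a log2 fold change of 0.64 and a 95% interval from 0.39 to 0.89 (adjusted p = 7.1e-04, limma with Benjamini-Hochberg adjustment). Without MP library 3, and equally without APL library 2, the value was 0.56, below the fold threshold, and the call was lost. Klf9, on chromosome 19 from 23141226 to 23166911, encodes a factor induced by glucocorticoid and thyroid hormone. It had 643, 659 and 580 scaled fragments in MPs and 1108, 946 and 947 in APL progenitors. The groups were well apart, and the rise was 1.59-fold, with a log2 fold change of 0.67 and a 95% interval from 0.45 to 0.89 (adjusted p = 2.4e-04, limma with Benjamini-Hochberg adjustment). When all libraries were scaled to the same total, the values fell to 0.54 for Klf9 and 0.51 for Klf13 and both calls were lost, a scaling that moved the median of all genes from −0.10 to −0.23.

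Klf10 and Klf11, both first described as genes induced by TGF-β, were not called. Klf10, on chromosome 15 from 38294413 to 38300707, had 696, 863 and 822 scaled fragments in MPs and 597, 642 and 567 in APL progenitors. The groups did not overlap. The log2 fold change was −0.39 with a 95% interval from −0.63 to −0.16 (adjusted p = 0.0083, limma with Benjamini-Hochberg adjustment), and its 1.31-fold difference was under the fold threshold. Klf11, on chromosome 12 from 24651371 to 24662782, had 395, 662 and 407 scaled fragments in MPs and 632, 655 and 659 in APL progenitors. MP library 2 was the highest of all 6 libraries, and the other MP libraries lay below the APL libraries. The log2 fold change was 0.45 with a 95% interval from 0.04 to 0.87 (adjusted p = 0.053, limma with Benjamini-Hochberg adjustment). Without MP library 2 it was 0.69 (adjusted p = 0.00035), and Klf11 was called as upregulated. Klf16, a further SIN3A-binding gene outside the 10, had 776, 798 and 933 scaled fragments in MPs and 582, 719 and 594 in APL progenitors and was not called (log2 fold change −0.41, adjusted p = 0.011, limma with Benjamini-Hochberg adjustment).

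**Figure D2:**
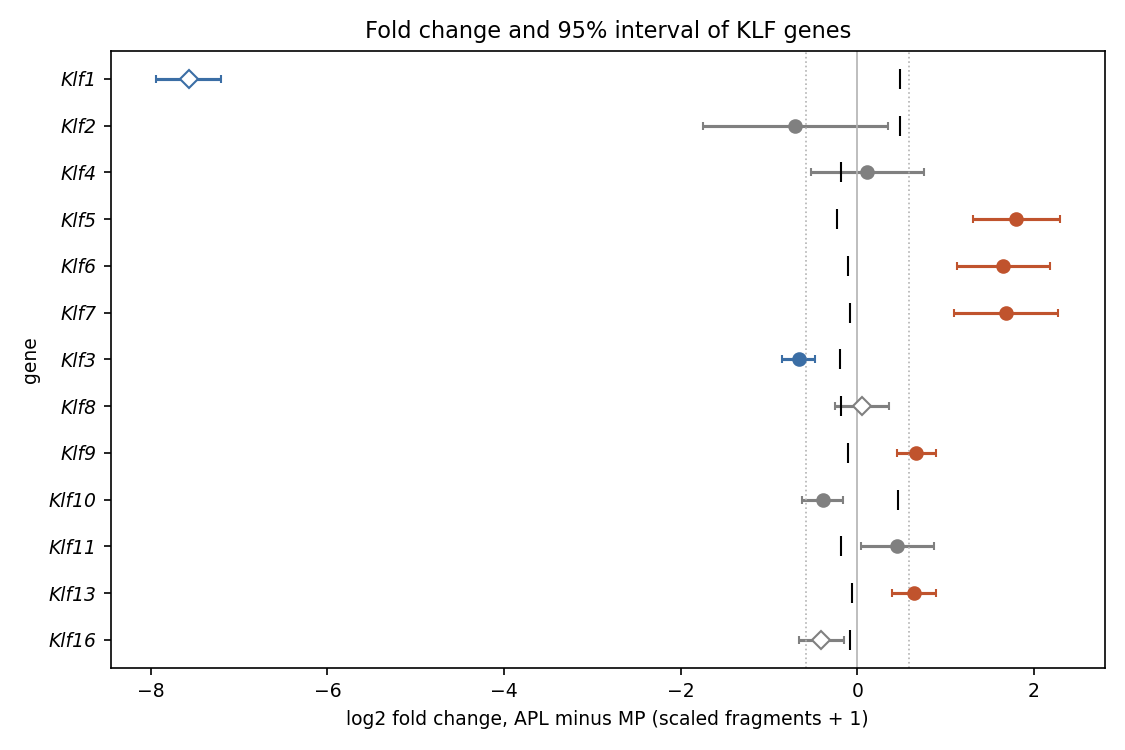
Log2 fold change (APL minus MP) of each KLF gene with its 95% interval, for the 10 members (filled circles) and for Klf1, Klf8 and Klf16 (open diamonds), coloured orange where upregulated, blue where downregulated and grey where not called. Dotted lines mark a fold change of 1.5 and black ticks the median of all tested genes on the gene's chromosome, and the members run from −0.70 (Klf2) to 1.8 (Klf5) while Klf1 stands at −7.57.

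The genes on a chromosome did not all share the median of the whole table. On chromosome 8, which holds Klf1 and Klf2, the median log2 fold change was 0.48, and on chromosome 15, which holds Klf10, it was 0.46, while the chromosomes of the other members had medians between −0.23 and −0.06. Relative to these medians, Klf2 was at −1.18 and Klf10 at −0.85. For Klf3 the value relative to its chromosome was −0.47, under the fold threshold. The part of a difference in chromosome copies in these values was not tested.

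Grouped by partner, the activators held 3 upregulated and 2 uncalled genes, the CtBP-binding genes with Klf8 and Klf12 held 2 downregulated genes and 1 uncalled gene, and the SIN3A-binding genes with Klf16 held 2 upregulated and 3 uncalled genes. Over all genes tested 46.1% were called, and the 2 of 5 called in the SIN3A-binding group were near that share. This grouping was made after the values had been seen and was not tested. Klf15, in none of these groups as listed here, had 0.937, 0 and 2.71 scaled fragments in MPs and 20.0, 19.1 and 32.1 in APL progenitors. Before scaling these were 4 against 65 fragments. With the scaling by library allowed for, the ratio was 18.6. Its exact 95% interval, from 6.94 to 70.5, covers counting error only and not the spread between libraries.

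Levels of the members against each other were compared in FPKM, which is per length. In MPs the order of the mean levels was Klf3 (14.0 FPKM), Klf13 (10.7), Klf10 (8.81 to 10.8 over the libraries), Klf9 (7.43), Klf2 (5.80), Klf6 (5.66), Klf11 (4.95), Klf4 (3.00), Klf7 (1.13) and Klf5 (0.985). Of the neighbours in that order, Klf3 was clear of Klf13, Klf10 of Klf9, and Klf4 of Klf7, and the ranges of all other neighbours overlapped. In APL progenitors the order was Klf6 (16.7 FPKM), Klf13 (16.6), Klf9 (11.9), Klf3 (8.82), Klf10 (7.53), Klf11 (6.48), Klf7 (3.79), Klf5 (3.54), Klf2 (3.12) and Klf4 (3.09). There Klf6 and Klf13 overlapped, as did each neighbouring pair from Klf7 down to Klf4, and the others did not.

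By mean FPKM, Klf3 thus held the first place in MPs and the fourth in APL progenitors, and Klf6 the sixth and the first. The range of Klf6 overlapped those of Klf2, Klf4, Klf9 and Klf11 in MPs and that of Klf13 in APL progenitors. Klf6 made up 8.71% of the summed FPKM of the 10 members in MPs and 20.5% in APL progenitors, and Klf3 made up 22.0% and 10.8%. The sum of the members was 71.4, 59.2 and 60.2 FPKM in MPs and 81.3, 81.7 and 81.9 in APL progenitors. The sum of all KLF genes in the table went the other way, with 172, 168 and 184 FPKM in MPs and 93.3, 95.8 and 94.5 in APL progenitors. Klf1 accounted for 49.9%, 55.7% and 58.0% of that sum in the MP libraries and for 0.429%, 0.532% and 0.552% in the APL libraries.

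**Figure D3:**
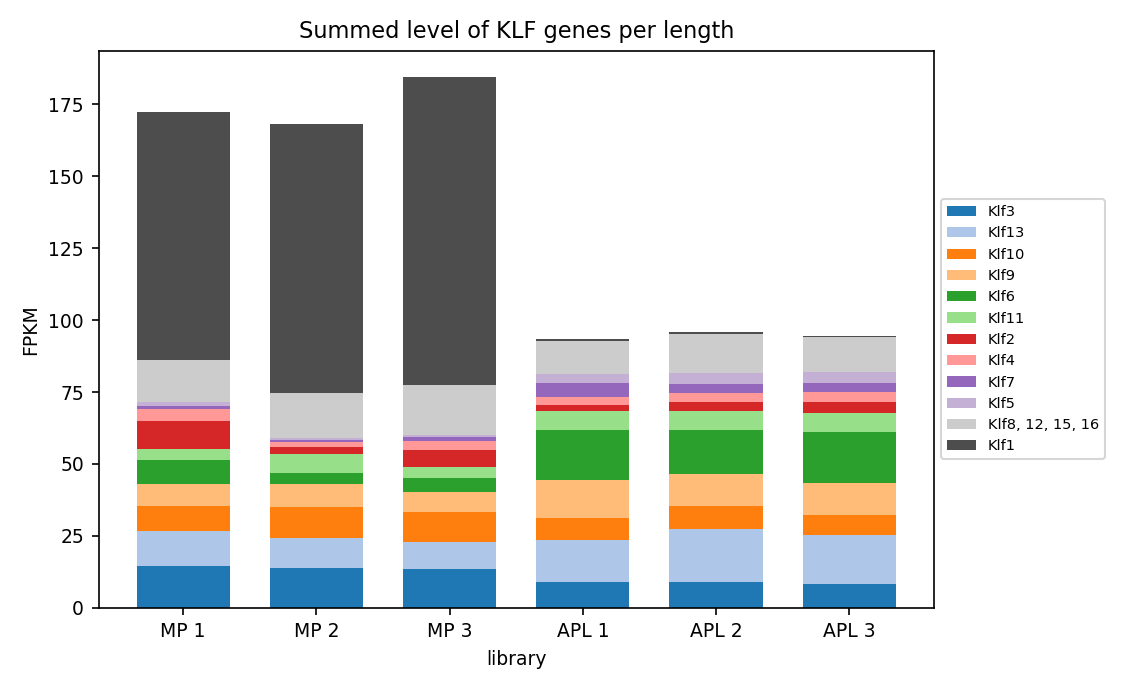
Summed FPKM of the KLF genes in each library (vertical axis), stacked by gene, with Klf1 in dark grey and Klf8, Klf12, Klf15 and Klf16 together in light grey. Klf1 fills the upper part of the MP bars (49.9% to 58.0% of the sum) and is barely visible in the APL bars, while the coloured stack of the 10 members is taller in all 3 APL libraries.

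The spread of several members inside the MPs was larger than that of most genes. On the log2 scale the SD over MP libraries was 1.07 for Klf2, 0.64 for Klf4, 0.55 for Klf6 and 0.42 for Klf11, against a median of 0.17 over all genes tested. Klf3, at 0.05, was among the least variable. Over the APL libraries Klf2 had an SD of 0.35, Klf4 0.17, Klf6 0.13 and Klf11 0.03, with a median of 0.12 for all genes.

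MP library 1 was the highest and MP library 2 the lowest MP library for 5 of the 10 members (Klf2, Klf3, Klf4, Klf5 and Klf6), an order that 9.34% of all genes tested had. Immediate early and stress genes, which are induced within minutes by growth factors and by handling of cells, were listed after this had been seen. This order was found in 8 of 12 of them, and their summed level was 33277, 15966 and 27594 scaled fragments in MPs and 17626, 17274 and 23437 in APL progenitors. Jun, with the most scaled fragments by the mean of all 6 libraries, had 9702, 4907 and 8209 in MPs and 4232, 3789 and 5802 in APL progenitors. Hspa1b, a heat shock gene, went the other way, with 145, 479 and 161 in MPs and 489, 493 and 539 in APL progenitors, and so had its highest MP value in library 2, as Klf11 had. Of the 12 genes, 4 were downregulated, 3 were upregulated and 5 were not called. The late neutrophil genes were also lowest in MP library 2, with a summed level of 121555, 66618 and 114871 in MPs. The part of handling, stress or cell composition in the spread of the members was not tested.

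**Figure D4:**
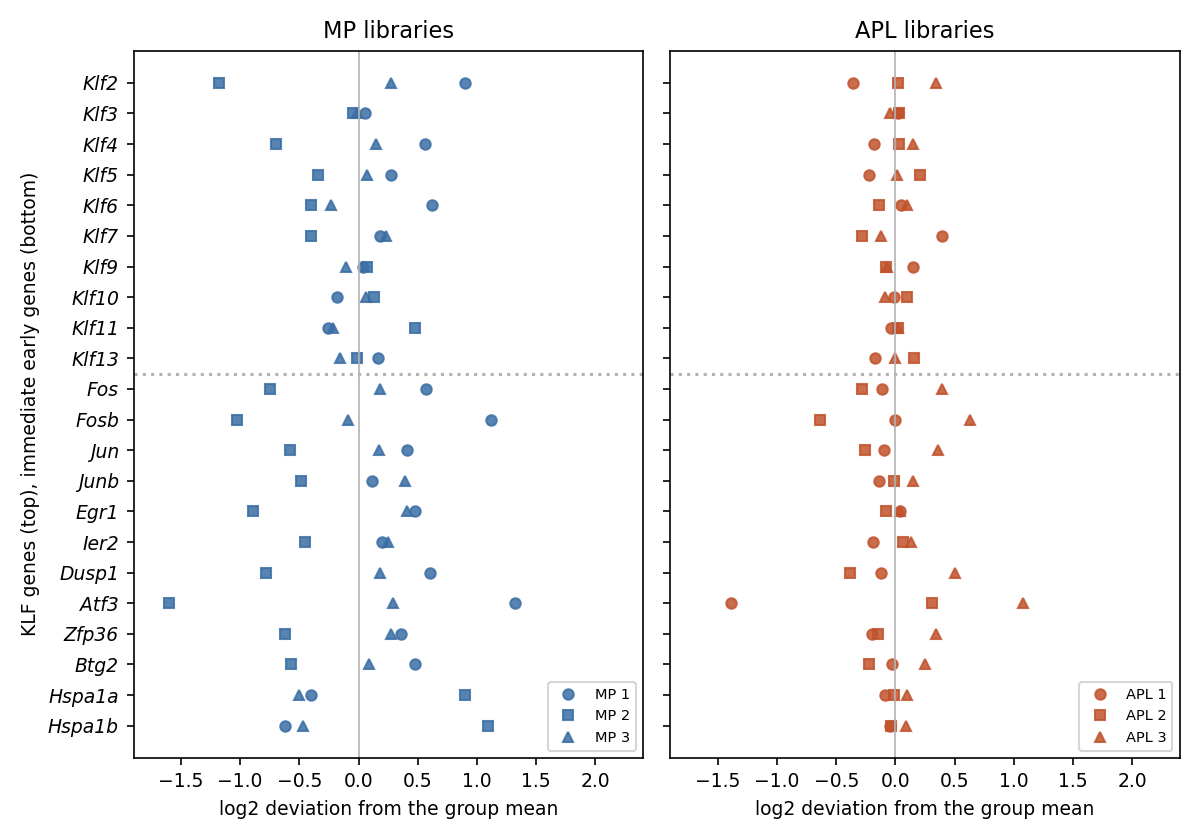
Log2 deviation of each library from the mean of its group (horizontal axes) for the 10 KLF members (above the dotted line) and 12 immediate early and heat shock genes (below it), in MPs (left) and APL progenitors (right). In MPs the square of library 2 lies far to the left for Klf2, Klf4, Fos, Egr1 and Atf3. It lies far to the right for Klf11, Hspa1a and Hspa1b. The APL points of Klf2, Klf4, Klf6 and Klf11 span a narrower range than their MP points.

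Genes around the KLF factors were taken from lists of partners, turnover factors, upstream regulators and targets. The shares called in these lists are to be read against the 46.1% called over all genes, to which those of the cofactors, turnover factors and upstream regulators were near. Of 11 cofactors, 5 were upregulated and 1 was downregulated, with a median log2 fold change of 0.49. Sin3a, which encodes the corepressor bound by the Klf9, Klf10, Klf11, Klf13 and Klf16 proteins, had 3218, 3527 and 3221 scaled fragments in MPs and 25448, 24423 and 25682 in APL progenitors. All APL values were far above the MP values, a 7.59-fold rise (adjusted p = 1.1e-08, limma with Benjamini-Hochberg adjustment). Fhl3, a LIM-domain partner of Klf3, rose 2.65-fold. Ctbp1, which encodes a CtBP corepressor, had a mean of 6403 scaled fragments in MPs and 4246 in APL progenitors, without overlap. At a log2 fold change of −0.58 (adjusted p = 0.0018, limma with Benjamini-Hochberg adjustment) it fell just short of the fold threshold and was not called. Ctbp2, the other CtBP gene, was called as upregulated, with means of 1015 and 1703 (1.68-fold, adjusted p = 2.6e-05, limma with Benjamini-Hochberg adjustment).

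Among 6 genes of KLF protein turnover, 2 were upregulated and 1 was downregulated, with a median log2 fold change of −0.02. Smurf1 and Wwp1, which encode ubiquitin ligases, rose by log2 fold changes of 0.92 and 0.84. Btrc, a ubiquitin ligase component, was not called, with means of 594 scaled fragments in MPs and 536 in APL progenitors. Of 14 upstream regulators, 7 were downregulated and 7 were not called, with a median of −0.49. Irf8, the monocyte-lineage factor that activates Klf4, had 3093, 2519 and 3285 scaled fragments in MPs and 87.2, 114 and 91.3 in APL progenitors, a 30.1-fold fall, whereas Klf4 was not called. Mef2c, of the MEF2 factors that activate Klf2 and Klf4, fell 9.05-fold, from a mean of 2135 to 235. Klf2, whose promoter holds the MEF2-type match printed above, was not called with all libraries. It was called as downregulated without MP library 2 (log2 fold change −1.29) and was not called without MP library 1 (−0.25). A link between Mef2c and Klf2 was not tested. Nr3c1, the glucocorticoid receptor that induces Klf9, was not called, with means of 2618 and 2660.

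Of 12 genes known as KLF targets, 4 were downregulated and 6 upregulated, with a median log2 fold change of 0.83. Eng, which encodes endoglin and is activated by Klf6, had 2445, 2597 and 3037 scaled fragments in MPs and 23.6, 26.0 and 32.1 in APL progenitors, a 95.8-fold fall beside the rise of Klf6 (adjusted p = 6.8e-09, limma with Benjamini-Hochberg adjustment). S1pr1, the receptor for lymphocyte egress that Klf2 activates, had 33.7, 59.0 and 55.0 in MPs and 2.36, 0.867 and 1.23 in APL progenitors. Before scaling these were 159 against 4 fragments. With the scaling by library allowed for, the ratio was 34.6. Its exact 95% interval, from 13.3 to 129, covers counting error only and not the spread between libraries. Smad7, a brake on TGF-β signalling that Klf10 represses, had a log2 fold change of 0.42 and was not called (adjusted p = 0.017, limma with Benjamini-Hochberg adjustment). Of 5 SP factors tested, the nearest relatives of the KLF factors, 1 was downregulated and 4 were not called, with a median of 0.21. Sp4 fell 3.06-fold, and Sp1 was not called, with means of 3899 and 5065 scaled fragments.

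**Figure D5:**
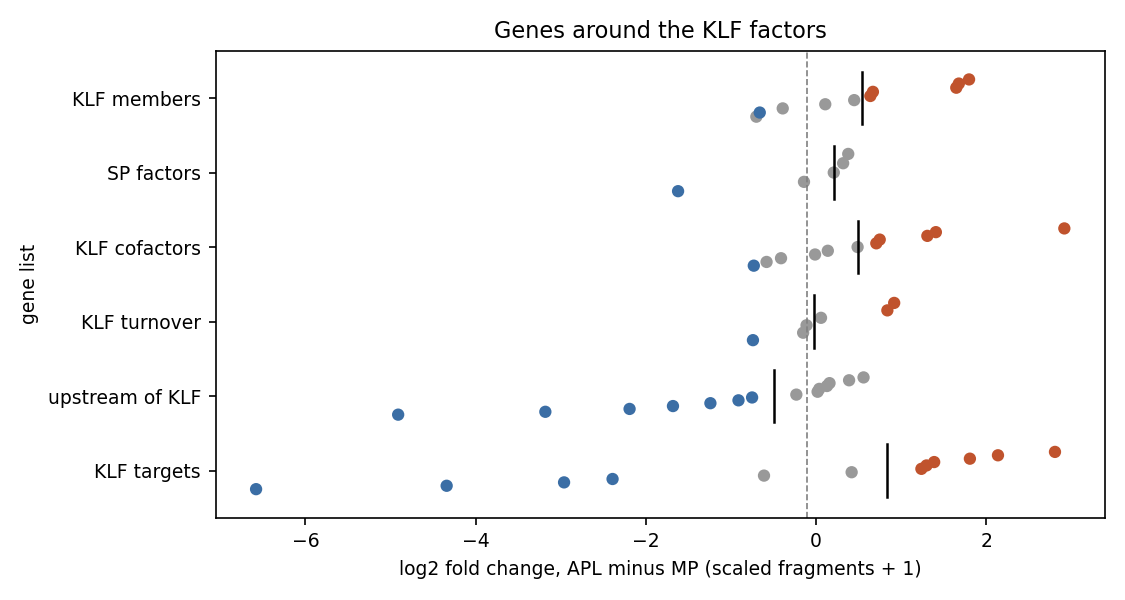
Log2 fold change (APL minus MP) of each tested gene in the lists around the KLF factors, one row per list, coloured orange where upregulated, blue where downregulated and grey where not called, with a black bar for the median of the list. The dashed line is the median of all genes tested, −0.10, and the list medians run from −0.49 for the upstream regulators to 0.83 for the targets.

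The genes whose values were most like those of Klf3, by the Euclidean distance of log2 values over the 6 libraries, were Eme1 (0.18), Armcx2 (0.19) and Arhgap33 (0.20). For Klf5 they were Tnfrsf23 (0.47), Tspyl4 (0.58) and Tigd5 (0.59). Other annotated genes overlap the span of Klf3, Klf7, Klf9, Klf10 and Klf13, and the sources used here do not say whether fragments were counted by strand, so a share of the values of these members could belong to those genes.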

How the data were processed

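Total RNA of sorted MPs and c-Kit+ APL progenitors was sequenced after TruSeq library preparation (3 libraries per group). The submitters' processing notes name CASAVA 1.8, TopHat2 2.0.6 and mm10, whereas the methods of the study describe STAR with mm9, followed by HTSeq-count and DESeq2. The tool that made the table is not given in the sources used here. The authors deposited FPKM values, normalized to transcript length and mapped fragments, and a fragment signal, which holds fragments estimated per gene and multiplied by a factor for each library. The fragment signal was the value tested. The scaled value of 1 fragment was read from the smallest step, and multiples of it, within 0.02, made up most of the low values, the ones checked. Because the deposited signal is scaled and not whole, no count test was used. Loci in the table follow mm10, and starts were counted from 1.

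limma 3.58.1 in R 4.3.3 (lmFit, and eBayes with a trend) was applied to log2(scaled fragments + 1) for genes with at least 1 in at least 3 of 6 libraries, with Benjamini-Hochberg adjustment. On this scale, changes of low genes come out too small. The procedure was tested on simulated data. There, far fewer genes changed than were called here, and all genes had the same added spread between libraries. That test therefore does not show how the procedure performs on these data. Plots used matplotlib 3.10.9 (Python 3.11.15). All KLF genes are named. Of each list around them, the text names the 2 called genes with the largest change and the uncalled gene with the most scaled fragments, and of each cell type list the gene with the most scaled fragments, a quantity that grows with transcript length. Other genes named from cell type lists, and Ctbp2, were chosen after their values had been seen. The members and lists were chosen with earlier results of these data known, and the immediate early genes, the sorting markers and the grouping of KLF genes by partner were chosen after their values had been seen. Alternatives covered the unit, pseudocount, filter, scaling, voom weights, thresholds, the library number as a block, the chromosome median and each library left out.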

Additional observations from a re-analysis of the deposited data

How the results depend on the processing

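Klf3, Klf5, Klf6 and Klf7 kept their direction and their call under all alternatives tested, except that Klf3 was −0.47 relative to its chromosome median and lost its call at a fold over 2. Of the 10 members, 2 were called as downregulated with no fold threshold and 0 at a fold over 2 (0 at an unadjusted p under 0.05 in limma and 0 with voom at that fold), and 1 to 2 with a library left out. Upregulated members numbered 3 with libraries scaled to the same total, 3 with voom and 3 at a fold over 2, and 4 to 6 with a library left out. Over all genes, 3558 were downregulated, against 5443 with no fold threshold, and in FPKM, where the filter left 11131 genes, 1980 with a pseudocount of 1 and 2239 with 0.1. Downregulated genes made up 52.9% of all calls, against 60.8% at the same total, 60.9% with voom, 49.0% with median ratio scaling and 47.9% with quantile normalization. With a library left out, 2913 (without MP library 3) to 3507 were downregulated and 2734 to 3256 upregulated, against 3167. The log2 fold change of Klf4 was −0.02 at the same total and −0.02 with voom, both reversed. Klf9 was 0.54 and Klf13 0.51 in both, and Klf10 was −0.85 relative to its chromosome median. With a library left out, values ran from −1.29 to −0.25 for Klf2, −0.24 to 0.39 for Klf4, −0.48 to −0.33 for Klf10, 0.32 to 0.69 for Klf11, 0.59 to 0.71 for Klf9 and 0.56 to 0.73 for Klf13. The causes were not tested.

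A replicate block on the library number gave 3589 downregulated and 3164 upregulated genes, with 1 and 5 members as before. Correlations of same-numbered deviations were 0.135, −0.002 and 0.127, so the numbers were not treated as pairs. Klf5 and Klf7 rest on the fewest fragments of the members, at least 26 per library, and Klf12, Klf15 and S1pr1 on too few for a precise fold.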

Other observations

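Markers of other cell types were read beside the KLF genes, and the lists differed in how many of their genes were called. Of 5 primary granule genes of the neutrophil lineage, 4 were upregulated and 1 was not called, with a summed level of 350870, 313764 and 335093 scaled fragments in MPs and 793934, 945747 and 926272 in APL progenitors, and Mpo, the myeloperoxidase of promyelocyte granules, held the most fragments, while per length Elane was above Mpo in APL progenitors (mean FPKM of 9386 against 8354). Of 8 late neutrophil genes, 2 were upregulated and 2 downregulated, and their sum was 212583, 214770 and 220072 in APL progenitors, where S100a8 held the most fragments. All 6 megakaryocyte genes passed the filter, and 4 were downregulated and 2 were not called. Their summed level was 2546, 2571 and 3499 in MPs and 108, 123 and 167 in APL progenitors. Itga2b, the platelet integrin, held the most fragments in MPs, though per length Pf4 was above it (mean FPKM of 47.4 against 18.6), and Gp1bb held the most, at 62.5, 76.8 and 81.9 scaled fragments, in APL progenitors.

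Of 5 mast cell and basophil genes, 4 were downregulated and 1 upregulated, with 4202, 4127 and 5508 scaled fragments in MPs and 733, 825 and 884 in APL progenitors. Gata2 held the most fragments in MPs, and Mcpt8, the upregulated gene, held 611, 683 and 745 in APL progenitors. Of 5 B cell genes, 3 were downregulated and 1 upregulated, with sums of 376, 348 and 444 against 108, 147 and 112. Cd79b held the most fragments in MPs, and Vpreb1, the upregulated gene, in APL progenitors, with 98.9, 128 and 101. Of 4 T and NK cell genes tested, 1 was downregulated and 3 were not called. The sums over all 6 genes of that list were 3727, 3444 and 3513 against 3453, 3803 and 3975, most of it from Nkg7. Cd3e was listed at 0 in all MP libraries and Cd3g in all APL libraries. Both were too low to be tested, with at most 1.23 scaled fragments for Cd3e in APL progenitors and 6.31 for Cd3g in MPs. How far these cell types account for the values of the KLF genes was not tested.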
